A study of Mus musculus with 12 samples.

Results

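Cortex messenger RNA of male mice homozygous for the Y446C allele of Tbl1xr1 was compared with that of wild-type males. These 6 animals, of 12 in the whole series, are those whose column names in the count table carry the male code. Mutants 7, 10 and 27 formed 1 group of 3, and wild types 8, 12 and 13 formed the other. All were C57BL/6J mice of 12 weeks, each sequenced as a separate animal, and no agent was given to either group. They were killed by exsanguination, and the cortex was taken out and frozen, so every library mixes neurons, glia, vessels and residual blood. Y446C exchanges 1 tyrosine for a cysteine, and the labels limit the allele to no cell type or age, so the groups do not separate developmental from adult effects or one cell type from another.

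Tbl1xr1 encodes a WD40-repeat protein that, like its X-linked relative Tbl1x, sits in the nuclear corepressor complex. Ncor1 can form the scaffold of that complex, Gps2 joins the repression module and Hdac3 removes acetyl groups from histones. The complex binds unliganded nuclear receptors, among them the thyroid hormone, liver X and retinoic acid receptors, and keeps their targets low until hormone or lipid ligand arrives. The same amino acid change in people causes Pierpont syndrome, a developmental disorder with intellectual disability.

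The libraries held 21238427 to 31944952 counts assigned to genes and 24346 to 26012 genes with a count, so a count of 0 allowed up to 0.0901 to 0.143 CPM (edgeR's normalised read count, on TMM-scaled library totals). Such floors cover counting error alone. Replicates of 1 genotype differed by 9.01 to 39.8 times counting noise (chi-square per degree of freedom), and no pair agreed closely enough to be copies of 1 library. The cortical excitatory neuron marker Slc17a7 was abundant in all 6 (539 to 897 CPM). Beyond that, several libraries stood apart in some genes. Wild type 8 took 10.4% of its counts from mitochondrial genes, against 5.57% to 6.51% in the other 5. Mutant 10 held genes of cerebellar neurons, picked out after their values were seen. The granule cell receptor gene Gabra6 was at 64.4 CPM there and at 0 to 3.81 CPM elsewhere, and Fat2, Cbln3 and Car8 were at 103, 128 and 150.0 CPM against at most 6.47, 7.63 and 19.4 CPM. The dopamine transporter gene Slc6a3, a midbrain marker, stood at 16.2 and 21.4 CPM in mutants 7 and 10 and at 0.348 to 5.02 CPM in the other 4. Gm42418, an annotated noncoding gene, ranged from 2593 to 18990 CPM without following genotype. Xist stood at 20.5 CPM in mutant 7 and at 0.160 to 2.31 CPM in the other males, far below the 798 to 1057 CPM of the females.

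The 2 genotypes were close to one another across the transcriptome. By edgeR's quasi-likelihood test, 0 of 17136 genes passed an adjusted p of 0.05, which is 0% higher and 0% lower. An unadjusted p under 0.05 was reached by 1170 genes, or 6.83%, with 500 higher in mutants (2.92%) and 670 lower (3.91%). DESeq2 called 16 of 17127 genes (0.0934%), with 7 higher (0.0409%) and 9 lower (0.0525%), whereas limma-voom called 0 with or without library weights. In 2334 genes (13.6%) the 3 mutants lay wholly on 1 side of the 3 wild types, 1171 higher (6.83%) and 1163 lower (6.79%). The absolute log2 fold change was under 0.25 in 77% of genes, with a median of 0.12 beside a median SE of 0.14. Changes past 1 on the log2 scale numbered 74 higher and 106 lower. Mutant 10 was the highest library for 54 of those 74 genes and exceeded every other library more than 3-fold for 26 of them. Without mutant 10 edgeR called 0 genes and left 724 at an unadjusted p under 0.05.

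**Figure D1:**
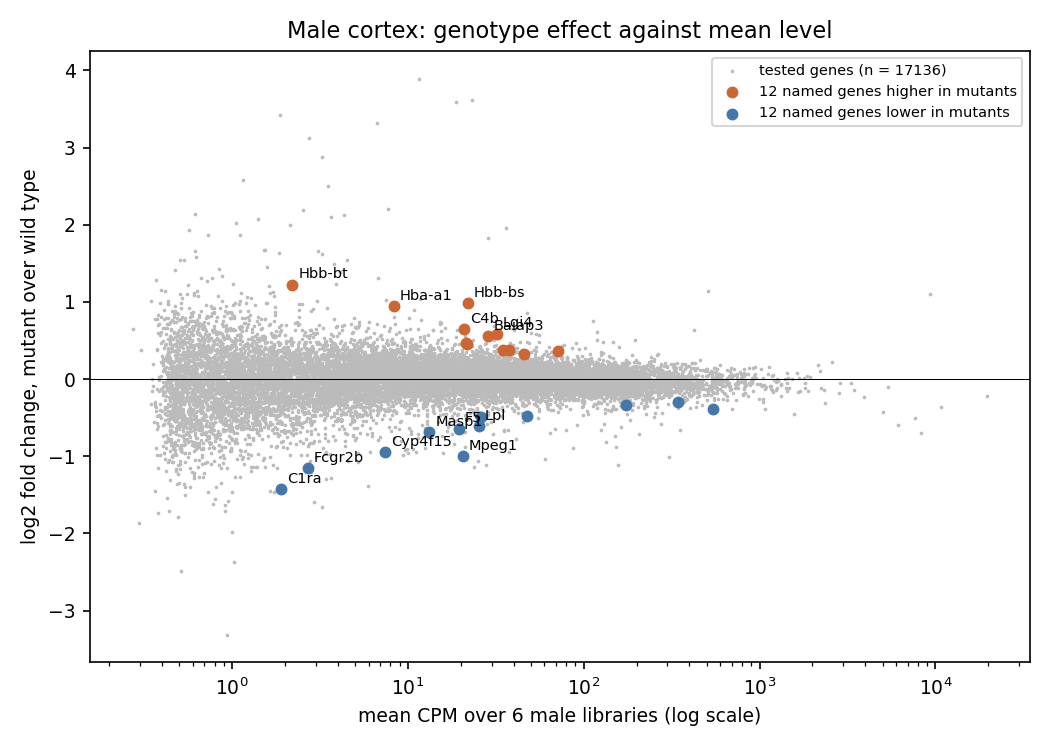
Log2 fold change of mutant over wild-type males (vertical axis) against mean CPM over the 6 libraries (log horizontal axis), 1 point per tested gene; coloured points are the 12 genes named on each side. Of the 17136 genes 77% lie within 0.25 of 0, Mpeg1 stands at -0.9995 and Hbb-bs at 0.99, and the grey points near 4 are genes such as Gabra6, Fat2 and Cbln3 that were high in mutant 10.

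The mutated gene was read first. Tbl1xr1 (ENSMUSG00000027630, chr3:22076652-22216594, GRCm38) stood at 118, 109 and 113 CPM in wild types 8, 12 and 13 and at 96.4, 95.0 and 97.7 CPM in mutants 7, 10 and 27. Every mutant lay below every wild type, by a log2 fold change of -0.23 (SE 0.07) that edgeR's test did not pass (adjusted p = 0.7207). The RNA level in mutants was 0.850 times the wild-type level. Counts carry no bases, so they do not check the genotype labels. The pseudogene Gm5842 overlaps Tbl1xr1 in antisense, and since no source used here says whether reads were counted by strand, overlapping genes are uncertain throughout.

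The partners of Tbl1xr1 were measured in the same libraries. Tbl1x, its relative in the same complex, stood at 115, 106 and 101 CPM in wild types and at 90.5, 85.3 and 91.1 CPM in mutants, again without overlap (log2 fold change -0.27, SE 0.08). The scaffold gene Ncor1 stood at 385, 338 and 345 CPM against 337, 315 and 333 CPM (-0.12, SE 0.08). Both genes were lower in all 3 mutants, although the Ncor1 values of wild type 12 and mutant 7 almost touch. Gps2 (-0.19) and Hdac3 (0.07) overlapped between the genotypes, and each changed sign when wild type 8 was left out (0.05 and -0.003). Of the 6 genes of the complex, 5 had a lower level in mutants, 4 of them without overlap (over all genes 6.79% lay wholly lower), and their median was -0.18 beside 0.01 over all tested genes. The median was -0.11 without wild type 8. None passed the test in edgeR (adjusted p = 0.7207 to 0.8434), and Ncor1 overlaps genes on the other strand.

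The lower side was led by Mpeg1. Mpeg1 (ENSMUSG00000046805, chr19:12460779-12465283) encodes perforin-2, a pore-forming protein with which macrophages and microglia attack engulfed bacteria. It stood at 26.9, 27.8 and 27.6 CPM in wild types 8, 12 and 13 and at 11.4, 14.5 and 15.2 CPM in mutants 7, 10 and 27. The wild types lay within 1 CPM of each other, and the highest mutant was far below them. Group means were 27.4 ± 0.471 and 13.7 ± 2.01 CPM (SD, n = 3). The log2 fold change was -0.9995 (SE 0.12), with the smallest p of all genes. EdgeR's adjusted p was 0.2778 and DESeq2's 1.62e-08. Over 15 alternatives the log2 fold change stayed between -1.09 and -0.89, with 3 of them calling it (adjusted p from 1.62e-08 to 1). One of those 3 was the fit that shared its spread with 5 of the females, in which Mpeg1 was the 1 gene called (adjusted p = 0.0338). No annotated gene overlaps Mpeg1.

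The inhibitory Fc receptor gene Fcgr2b, which restrains activation of macrophages by antibody, stood at 4.91, 3.01 and 3.30 CPM in wild types and at 1.24, 1.83 and 1.92 CPM in mutants (log2 fold change -1.15, SE 0.26). Cd34, a surface mucin of vessels and blood progenitors, stood at 53.5, 60.9 and 52.4 CPM against 41.8, 39.2 and 38.6 CPM (-0.48, SE 0.09). Lpl, which encodes lipoprotein lipase, stood at 29.2, 33.3 and 29.7 CPM against 19.7, 18.1 and 22.4 CPM (-0.61, SE 0.11). In these 3 genes the highest mutant was below the lowest wild type. DESeq2 called Cd34 (adjusted p = 0.0192) and Lpl (0.00803) but not Fcgr2b (0.1033), and edgeR called none of them (adjusted p = 0.5831 to 0.7207). Opposite-strand genes overlap Fcgr2b and Cd34.

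General markers of the cells that express Mpeg1 were divided. Among 20 microglia markers, 10 were higher and 10 lower, with a median of -0.0004, which was 0.04 when scaled by library totals. Cx3cr1 (log2 fold change 0.03), Csf1r (0.04) and the complement genes C1qa (0.001) and C1qb (0.03) were near 0. At an unadjusted p under 0.05 were Fcrls, an Fc receptor-like scavenger gene (0.43; 16.1, 18.3 and 19.9 CPM in wild types, 22.4, 23.1 and 27.4 CPM in mutants), and the lysosomal protease gene Ctss (-0.23; 51.3, 47.5 and 46.7 CPM against 40.5, 41.6 and 41.6 CPM). Of 16 markers of border-associated macrophages and leukocytes 13 were tested, and 8 were lower, with a median of -0.19 that became 0.03 without wild type 8. Of the 13 tested, 3 lay wholly lower, against 6.79% of all genes. They were Mpeg1 and Fcgr2b, already named for their small p in these data, and the leukocyte cytoskeletal gene Lsp1. Lsp1 stood at -0.62, and at -0.47 without wild type 8. The mannose receptor gene Mrc1, a defining marker of border macrophages, stood at 0.01. In bulk tissue, fewer cells of a type and less RNA per cell cannot be told apart.

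Complement proteases stood among the lower genes too. C1ra, the protease that starts the classical pathway with C1s, was at 2.79, 2.74 and 2.84 CPM in wild types and at 0.761, 1.08 and 1.24 CPM in mutants (log2 fold change -1.42, SE 0.24). Masp1, a protease of the lectin pathway, stood at 18.7, 15.0 and 15.7 CPM against 10.5, 10.06 and 10.02 CPM (-0.69, SE 0.12). C4b, which both pathways cleave, went the other way, with 15.3, 14.7 and 19.1 CPM in wild types and 22.8, 27.6 and 26.4 CPM in mutants (0.65, SE 0.13). For each of the 3 genes the genotypes did not overlap, and DESeq2 called all of them (adjusted p = 0.0183, 0.00803 and 0.0202) while edgeR did not (0.5115, 0.5115 and 0.7207). The receptor genes C5ar1 (-1.26) and C3ar1 (-0.59) were also lower in every mutant, at levels of at most 0.958 and 3.59 CPM, and C3ar1 stood at -0.37 without wild type 8. Of 15 complement genes tested, 10 were lower, with a median of -0.05, which was -0.01 when scaled by library totals. With 1 library left out it ran from -0.19 (without wild type 13) to -0.04 (without mutant 27), with -0.14 without wild type 12, -0.10 without mutant 7 and -0.09 without wild type 8. The mean log2 CPM of the list was 2.58 to 2.72 in wild types and 2.29 to 2.44 in mutants. Its summed level overlapped, at 149.2 to 168.9 CPM in wild types and 151.7 to 165.8 CPM in mutants. Genes on the other strand overlap Masp1.

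**Figure D2:**
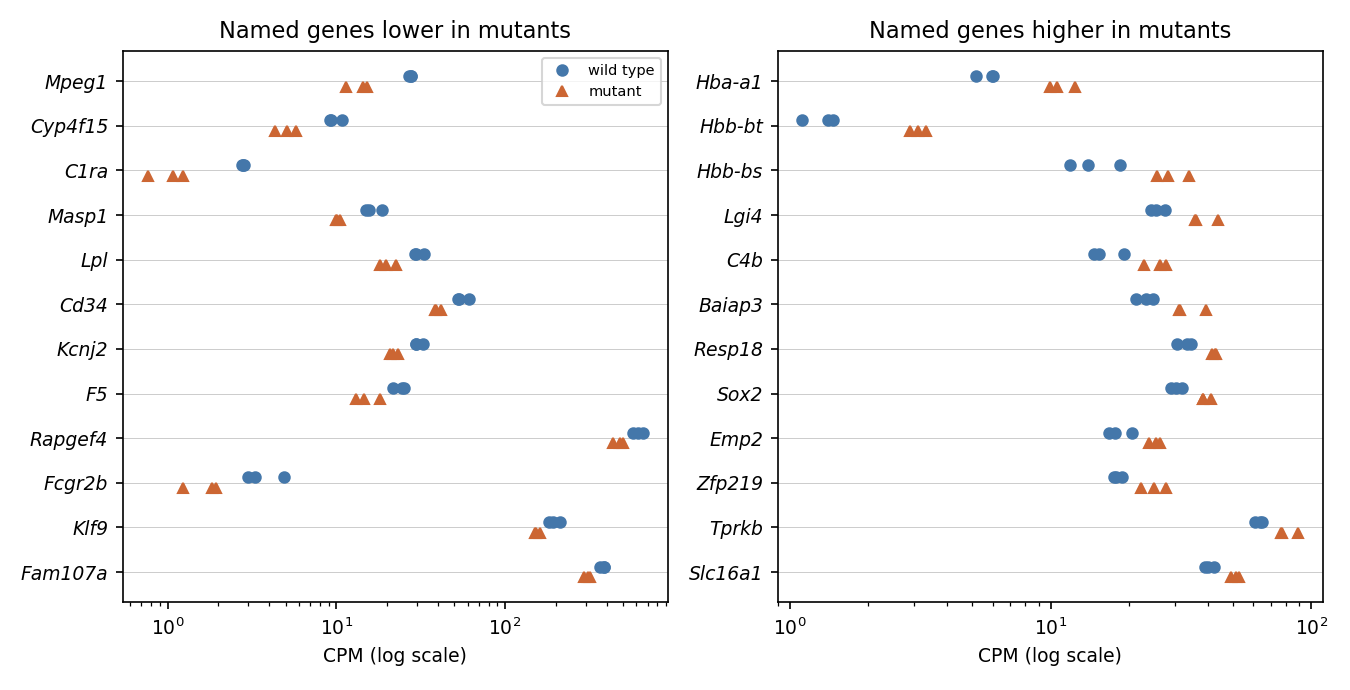
CPM (log scale) of the 12 genes named on each side, 1 row per gene, with 1 symbol per library (circles wild type, triangles mutant). In all 24 genes the 3 mutants and the 3 wild types form separate groups, as the choice by smallest p favours; Mpeg1 runs from 26.9 to 27.8 CPM in wild types and from 11.4 to 15.2 CPM in mutants.

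The rest of the 12 lower genes were of mixed function. Cyp4f15, a cytochrome P450 that oxidises fatty acids and eicosanoids, was at 9.12, 9.32 and 10.8 CPM in wild types and at 5.09, 4.36 and 5.73 CPM in mutants (log2 fold change -0.95, SE 0.15; edgeR adjusted p = 0.5115, DESeq2 0.00131). Coagulation factor gene F5, expressed in brain by the choroid plexus among others, was at 25.1, 24.4 and 21.8 CPM against 18.2, 13.1 and 14.6 CPM (-0.64, SE 0.13). Among choroid plexus markers 12 of 14 were lower (median -0.12, and -0.24 without mutant 7), yet the main choroid plexus transcript Ttr overlapped and stood at -0.001. The inward rectifier gene Kcnj2 (-0.49), the cAMP-activated exchange factor gene Rapgef4 (-0.38), the hormone-responsive factor gene Klf9 (-0.34) and the actin-associated gene Fam107a (-0.30) completed the side, with SE of 0.07 to 0.09. DESeq2 called Kcnj2 and F5 (adjusted p = 0.0336 for each). Choosing 12 by smallest p makes separation likely, so it is described and not tested. DESeq2's 9 lower genes also include C730002L08Rik, outside the naming rule and named after its values were seen (-1.08), which overlaps Aldh1a1 on the other strand.

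Haemoglobin genes led the higher side. Hba-a1, an alpha-globin gene, was at 5.15, 6.01 and 5.95 CPM in wild types 8, 12 and 13 and at 12.4, 9.91 and 10.6 CPM in mutants 7, 10 and 27 (log2 fold change 0.94, SE 0.14). Adult beta-globin genes followed, with Hbb-bs at 11.9, 18.4 and 13.9 CPM against 33.9, 28.3 and 25.6 CPM (0.99, SE 0.17) and Hbb-bt at 1.46, 1.39 and 1.12 CPM against 3.33, 3.09 and 2.89 CPM (1.22, SE 0.21). Mutant 7 was the highest library in all 3, and none overlapped. DESeq2 called each (adjusted p = 6.66e-04, 2.87e-04 and 0.0479), edgeR none (0.5115 each). The haem synthesis gene Alas2, which marks reticulocytes, was higher in every mutant too (0.64), while Bpgm stood at -0.01. Summed over the 6 tested red cell markers of 9 listed, the level was 72.7 to 83.9 CPM in wild types and 94.8 to 110.6 CPM in mutants. The other 3 did not pass the filter on low counts. How much blood remained in each cortex was not tested. Because the globin genes resemble one another closely, reads may have been assigned to the wrong copy.

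Glia-expressed genes were also named on the higher side. Lgi4, a secreted protein gene needed for peripheral myelination, stood at 25.3, 24.3 and 27.5 CPM in wild types and at 35.8, 44.0 and 36.2 CPM in mutants (log2 fold change 0.59, SE 0.11; edgeR adjusted p = 0.6215, DESeq2 0.0106), and Fxyd3 overlaps it on the other strand. Sox2, the factor that maintains neural stem cells and is kept on in astrocytes, was at 30.3, 28.8 and 31.8 CPM against 41.3, 38.3 and 38.3 CPM (0.37, SE 0.08). The astrocyte filament gene Gfap, which increases when astrocytes react to injury, was at 162, 135 and 188 CPM against 205, 273 and 213 CPM (0.51, SE 0.14). In these 3 genes every mutant exceeded every wild type, and none passed in edgeR. The glutamate transporter gene Slc1a2 ran the other way, at 4414, 4257 and 4102 CPM against 3633, 3490 and 3744 CPM (-0.23, SE 0.08). Astrocyte markers as a list were 9 higher of 14, with a median of 0.09 that was 0.03 without mutant 10 and 0.04 without wild type 12. Of 15 oligodendrocyte markers 9 were higher (median 0.15), with mutant 27 the lowest library for that list and mutant 10 the highest. The oligodendrocyte median was 0.03 without mutant 10 (8 higher) and 0.06 without mutant 7, and it was 0.32 without mutant 27 and 0.22 without wild type 8, with all 15 higher in both of these. Precursor markers were 7 of 12 higher, with a median of 0.02 that ran from -0.001 (without wild type 13) to 0.08 (without mutant 27).

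The other genes named on the higher side were Baiap3 (0.56), which acts in dense-core vesicle trafficking, the endocrine gene Resp18 (0.37), the membrane protein gene Emp2 (0.46), the zinc finger gene Zfp219 (0.47), Tprkb (0.36) and the lactate transporter gene Slc16a1 (0.33). Their SE ran from 0.08 to 0.12, and neither edgeR's main fit (adjusted p = 0.7207 each) nor DESeq2 (0.0683 to 0.2825) called them. Without a filter on low counts edgeR called Baiap3 (adjusted p = 0.044). Baiap3, Resp18, Zfp219 and Tprkb overlap genes on the other strand, and Sox2 lies within Sox2ot on its own strand. DESeq2's 7 higher calls include Eps8l1 and 2900052N01Rik, which the rule does not name and which were picked after their values were seen. Eps8l1 stood at 3.83, 3.88 and 4.09 CPM in wild types and at 5.94, 14.9 and 8.18 CPM in mutants, with mutant 10 highest. Its log2 fold change of 1.31 was 0.85 at its lowest when 1 library was left out. The noncoding 2900052N01Rik was at 47.4, 39.4 and 47.5 CPM against 67.6, 58.0 and 74.5 CPM (0.57).

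Targets of the receptors that the corepressor complex serves were examined as lists. Of 19 genes that thyroid hormone induces in brain, 15 were lower in mutants, with a median of -0.13. The count of lower genes was 10 to 15 when 1 library was left out (median -0.02 without mutant 27 and -0.22 without mutant 10). Klf9, a zinc finger gene that the hormone receptor switches on directly, was at 192, 212 and 183 CPM in wild types and at 160, 150 and 153 CPM in mutants. The striatal GTPase gene Rasd2 was lower (-0.66, and -0.38 without wild type 12) with overlap, the cortical gene Hr, a corepressor itself, stood at -0.20, and the neurotrophin gene Ntf3 was higher (0.71). Dio3, which inactivates the hormone, had 0.472, 1.002 and 3.40 CPM against 1.76, 2.76 and 5.01 CPM, with wide overlap (0.97, and 0.50 without mutant 27). Of 26 targets of liver X and fatty acid receptors, 17 were higher with a median of 0.03, which was -0.01 without mutant 10. Cyp4f15 and Lpl belong to this list. Of other receptor targets, Abca1 stood at -0.12, whereas Abcg1 (-0.04), Srebf1 (0.06) and Scd2 (0.04) lay near 0.

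Promoter windows of 250 bases before the start site were read for the named genes from RefSeq (GRCm38.p6), since such receptors bind the hexamer AGGTCA. The hexamer was sought on both strands, and 10 of 12 genes on each side had a window. It occurred in 2 of 10 lower genes and 2 of 10 higher genes, 20.0% on each side, against 15.8% of 27025 genes with a window. The 60 bases around each match are shown because these 4 are the named genes that hold it, with the match in capitals (TGACCT is its reverse complement). Zfp219 holds it 2 times in 1 window, and the other 3 genes hold it 1 time each. F5 (chr1:164151751-164151810, plus strand) and Fcgr2b (chr1:170976250-170976309, minus strand) are lower genes, and Sox2 (chr3:34649745-34649804, plus strand) and Zfp219 (chr14:52019890-52019949 and chr14:52019714-52019773, minus strand) are higher genes.
F5: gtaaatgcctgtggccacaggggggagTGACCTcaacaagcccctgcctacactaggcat
Fcgr2b: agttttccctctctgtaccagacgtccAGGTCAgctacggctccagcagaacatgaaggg
Sox2: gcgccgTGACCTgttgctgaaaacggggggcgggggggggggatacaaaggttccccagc
Zfp219, upstream match: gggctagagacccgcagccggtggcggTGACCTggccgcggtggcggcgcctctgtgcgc
Zfp219, downstream match: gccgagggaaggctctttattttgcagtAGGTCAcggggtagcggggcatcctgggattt
A match describes letters in the window and no binding was measured. The ETS-type letters GAGGAAGT, known from macrophage promoters, were in 0 of 10 genes on each side against 2.79% of genes with a window. The Mpeg1 window held neither motif.

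Cholesterol synthesis genes stood higher as a group in male mutants. The sterol-sensing factor Srebf2 drives this pathway, which turns acetyl-CoA into cholesterol. Of 25 genes tested 24 were higher in mutants (over all genes 51.5% were higher and 48.5% lower), 7 of them without overlap (6.83% of all genes lay wholly higher), and the median was 0.14. Squalene epoxidase gene Sqle was at 54.7, 56.3 and 55.8 CPM in wild types and at 63.7, 67.5 and 74.0 CPM in mutants (log2 fold change 0.30, SE 0.08). Msmo1, which demethylates sterols, was at 87.8, 87.1 and 87.5 CPM against 98.4, 97.3 and 103 CPM (0.19, SE 0.07). In both genes the wild types lay close together and every mutant lay above them. The mean log2 CPM of the list was 4.79 to 4.89 in wild types and 4.98 to 5.002 in mutants. EdgeR called 0 members (adjusted p = 0.7207 for both), and 20 to 24 stayed higher when 1 library was left out, with a median of 0.10 to 0.15. The list did not stand higher in female mutants. Without female mutant 3, 11 of 25 genes were higher there (median -0.04), and with it 8 of 24 (median -0.14). The sterol element TCACNCCAC was in 1 of 17 members with a promoter window (5.88%) against 1.22% of genes with one. That member, Hmgcs1 (chr13:119690188-119690247, plus strand; 0.06), is shown with the element in capitals.
Hmgcs1: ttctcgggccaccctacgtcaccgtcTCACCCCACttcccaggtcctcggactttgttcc

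**Figure D3:**
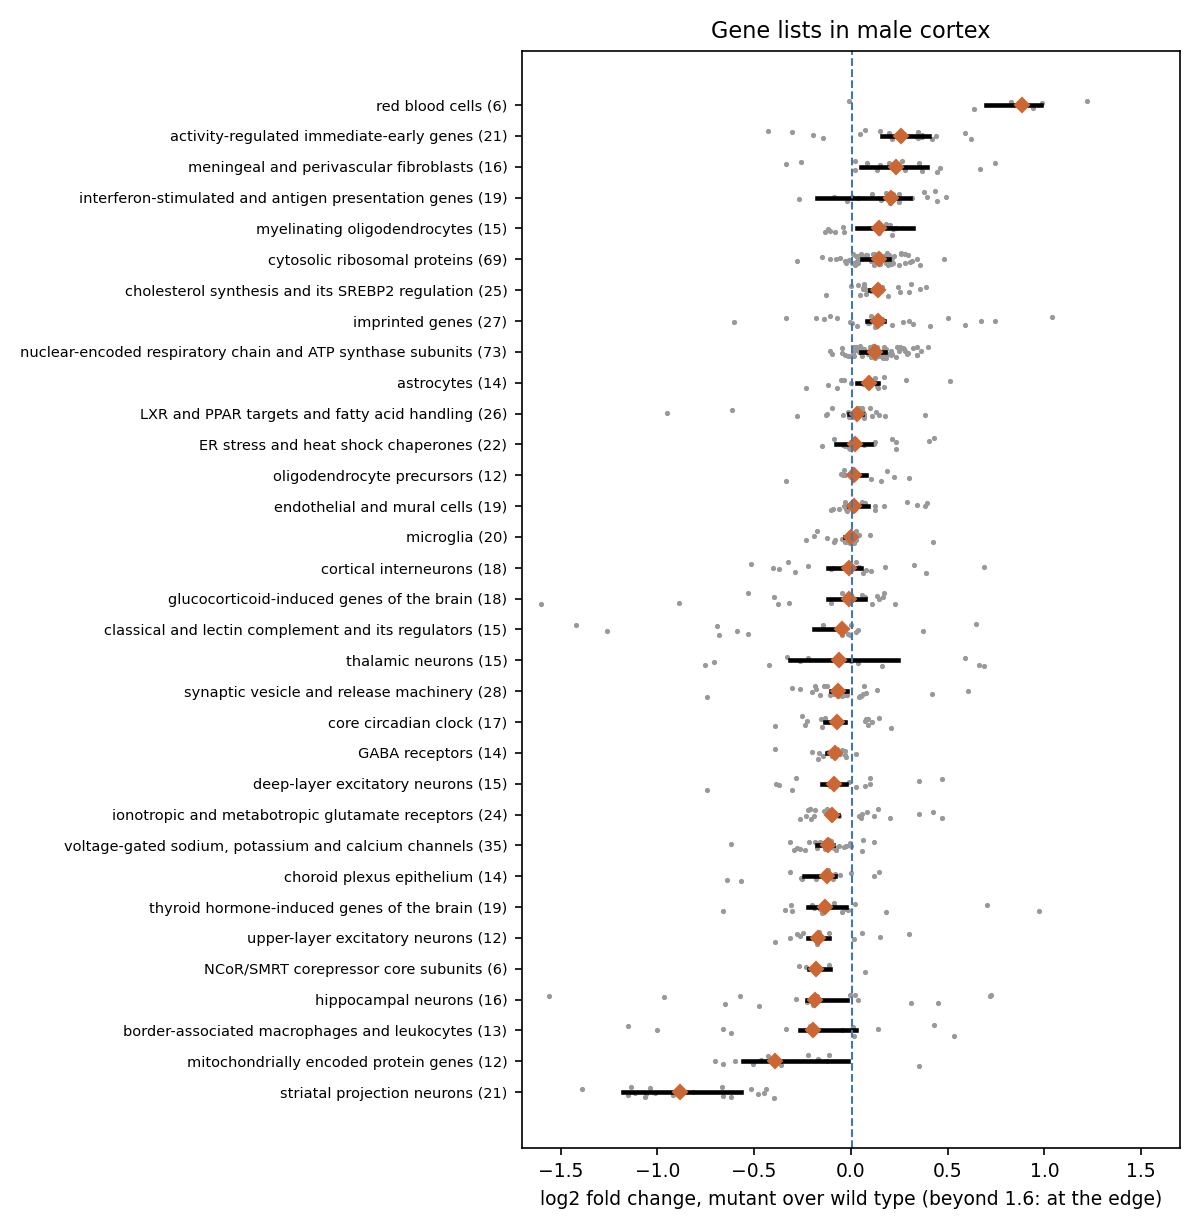
Log2 fold change of every tested member (points) of 33 gene lists in males, with the median of each list as a diamond, the range of that median when 1 library is left out as a bar, and members beyond 1.6 drawn at the edge. The dashed line is the median of all tested genes and the number beside each name is that of tested members. Striatal markers are all below 0 with a median of -0.88, red cell markers have the highest median at 0.88, and most other medians lie within 0.25 of 0.

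Striatal projection neuron markers were lower throughout, though with overlap. All 21 tested of 23 listed had a log2 fold change below 0 (median -0.88), and 0 separated the genotypes. At an unadjusted p under 0.05 in edgeR were 13, against 3.91% of all genes that were lower at that p. The members are not independent replicates. Drd2, the dopamine receptor gene of indirect-pathway neurons, was at 41.6, 46.6 and 13.4 CPM in wild types 8, 12 and 13 and at 22.5, 10.03 and 16.4 CPM in mutants 7, 10 and 27 (-1.06, SE 0.43). Ppp1r1b, which encodes DARPP-32, was at 170, 240 and 101 CPM against 125, 57.0 and 108 CPM (-0.82, SE 0.34, and -0.49 without wild type 12). Wild type 13 thus lay within the range of the mutants, and mutant 10 was the lowest library. Summed over the list, levels were 1212 to 2650 CPM in wild types and 767 to 1481 CPM in mutants. Leaving out 1 library gave medians from -1.18 (without wild type 13) to -0.57 (without mutant 10). In females without female mutant 3, 0 of 21 were higher in mutants (median -0.66), and with it 3 of 21 were higher (median -0.555). How far the dissections reached into the striatum was not tested.

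Neuronal receptor and channel genes leaned lower. Of 35 voltage-gated channel genes 31 were lower (median -0.12). Only 2 of the 35 lay wholly lower, a share near the 6.79% of all genes. Of 14 GABA receptor genes 13 were lower (median -0.08). The potassium channel gene Kcnq3, of the current that restrains repeated firing, was at 425, 460 and 377 CPM in wild types and at 374, 309 and 369 CPM in mutants (log2 fold change -0.26, SE 0.10, and -0.18 without mutant 10). The sodium channel gene Scn3a was at 87.8, 90.6 and 87.7 CPM against 80.7, 63.0 and 82.3 CPM (-0.24, and -0.12 without mutant 10). Gabra4, a receptor subunit outside synapses, was at 188, 168 and 151 CPM against 147, 112 and 129 CPM (-0.39, SE 0.12). In all 3, mutant 10 was the lowest library. Glutamate receptor genes were 14 lower of 24 (median -0.10), with 7 wholly lower and 2 wholly higher, against 6.79% and 6.83% of all genes. The NMDA receptor subunit gene Grin2b stood at 1101, 1118 and 1039 CPM against 911, 837 and 967 CPM (-0.26, SE 0.08), and Grin2a (-0.19), Gria2 (-0.20) and Grik2 (-0.22) were also lower in every mutant. Gria2 stood at -0.11 without mutant 10, and Grik2 at -0.12 without wild type 8. EdgeR called 0 of them (adjusted p = 0.7207 to 0.723). The part of the cerebellar genes of mutant 10 in these values was not tested. Without that library the channel list had a median of -0.11, with 29 of 35 lower.

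Cortical layer markers leaned the same way. Of 12 upper-layer markers 8 were lower (median -0.17), among them Rorb (-0.39), Cux1 (-0.28) and Mef2c, an activity-regulated factor gene (738, 749 and 663 CPM in wild types, 626, 510.0 and 653 CPM in mutants). Without wild type 8 Rorb stood at -0.25 and Cux1 at -0.17, and Mef2c went from -0.27 to -0.16 without mutant 10. Of 15 deep-layer markers 9 were lower, with a median of -0.09 that was -0.02 without wild type 12, -0.06 without mutant 10 and -0.15 without wild type 13. In that list the complexin gene Cplx3, of subplate neurons, was at 13.5, 16.1 and 16.1 CPM against 9.18, 6.67 and 11.5 CPM (-0.75, SE 0.19). Interneuron markers divided evenly, 9 higher and 9 lower, with a median of -0.01 that was 0.03 when scaled by library totals and -0.12 without wild type 12. Within them Gad1, which makes GABA, was at 402, 454 and 454 CPM against 376, 396 and 352 CPM (-0.22, SE 0.08), and the interneuron lineage gene Lhx6 was lower in every mutant (-0.40, and -0.23 without mutant 10). Pvalb (0.33) and Sst (0.06) overlapped, and Pvalb turned to -0.21 without mutant 10. Synaptic vesicle genes were 19 lower of 28, with a median of -0.06 that was -0.02 without mutant 10 or wild type 12 (16 lower in each) and -0.10 without wild type 13. Hippocampal markers were 10 lower of 16, with a median of -0.19 that was -0.02 without wild type 13 (8 lower) and -0.07 without mutant 7 or mutant 27. Thalamic markers were 10 lower of 15 (median -0.06), and their median ran from -0.31 (without wild type 12) to 0.25 (without wild type 8), with 0.18 without mutant 27 and -0.30 without mutant 10.

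**Figure D4:**
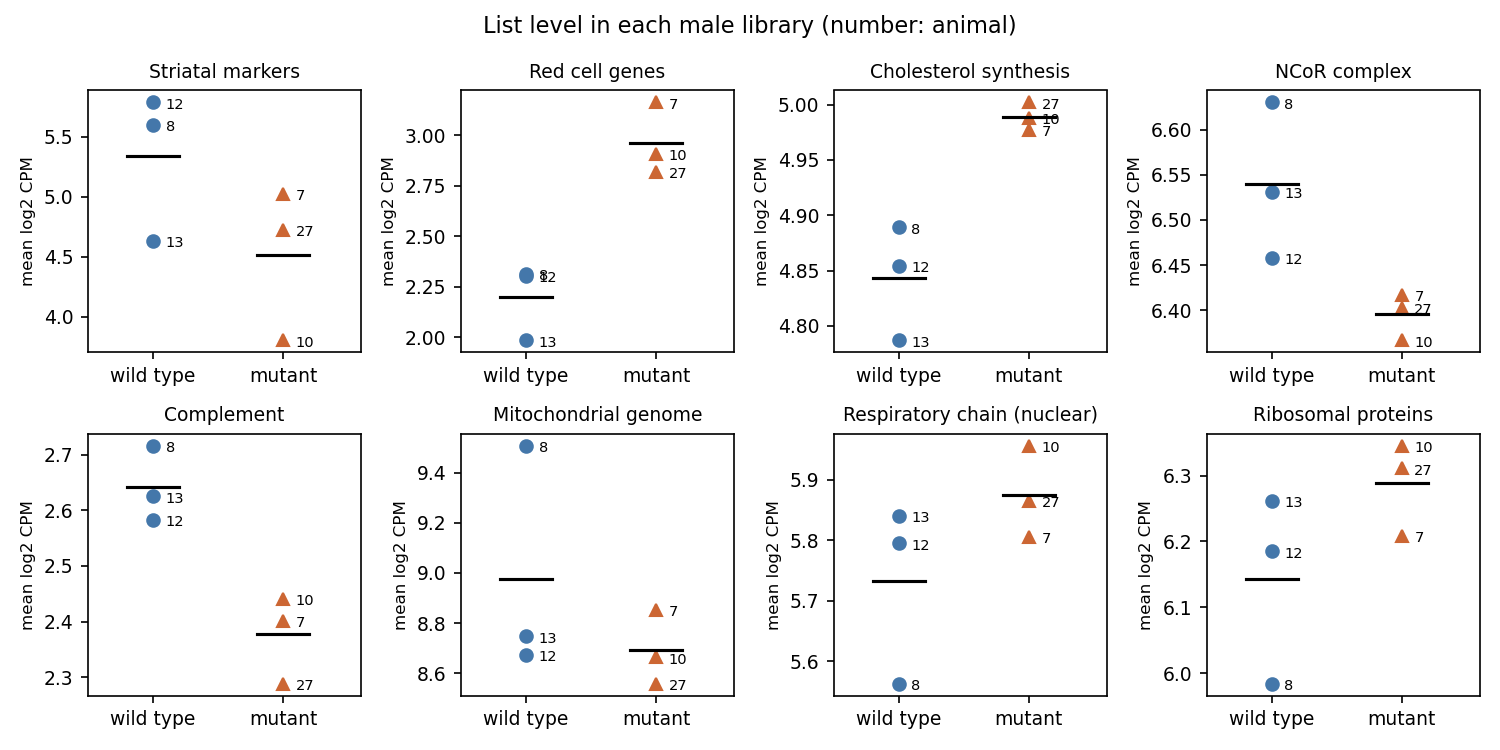
Mean log2 CPM of 8 gene lists (vertical axes, each with its own range and not from 0) in each male library, numbered by animal, with group means as bars. Cholesterol synthesis and red cell lists do not overlap between genotypes, the striatal list overlaps widely, and wild type 8 is far from the other 2 wild types in the mitochondrial and respiratory lists.

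Several lists moved with the library that was rich in mitochondrial transcripts. Nuclear genes of the respiratory chain were 66 higher of 73, with a median of 0.13 that was 0.05 without wild type 8 (58 higher). Ribosomal protein genes were 61 higher of 69, with a median of 0.14 that was 0.06 without it (60 higher). The 12 tested respiratory genes of the mitochondrial genome were 11 lower, with a median of -0.39 that was -0.01 without it (7 lower). Rpl17, the ribosomal gene with the smallest p, was at 37.7, 34.9 and 37.1 CPM in wild types and at 48.2, 61.2 and 43.9 CPM in mutants (0.48, SE 0.12). Immediate-early genes, which neurons switch on within minutes of activity, were 17 higher of 21, with a median of 0.26 that was 0.16 without wild type 8 and 0.41 without mutant 10. Dusp1 (0.42), Fosl2 (0.59) and Klf4 (0.62) had the smallest p, while Npas4, a neuronal member of the list, stood at -0.43 and Fos at 0.35 with overlap. Fosl2 stood at 0.33 without wild type 8, Npas4 at -0.26 without wild type 13 and Fos at 0.16 without mutant 7. In these lists edgeR called 0 members.

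Interferon-induced genes depended on 1 mutant. Of 19 tested, 16 were higher with a median of 0.21, but without mutant 10 the count was 4 of 19 and the median -0.17. Ifitm3, an antiviral membrane protein gene, was at 3.92, 4.49 and 4.84 CPM in wild types and at 5.52, 8.56 and 4.45 CPM in mutants (0.49, and 0.18 without mutant 10). The list's mean log2 CPM was 2.74 in mutant 10 and 1.96 to 2.24 in the other 5 libraries. Meningeal markers were 14 higher of 16 (median 0.23), and 9 of 16 were higher without wild type 12 (0.05), while the median was 0.39 without wild type 8. Col3a1, a fibrillar collagen gene, stood at 6.52, 3.27 and 3.81 CPM against 7.85, 9.85 and 4.97 CPM. Endothelial and mural markers were 12 higher of 19 (median 0.02, with -0.01 without mutant 10 and 0.09 without wild type 8), with the tight junction gene Cldn5 higher in every mutant (0.29, SE 0.10).

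Imprinted genes, expressed from a single parental copy, included some of the wider differences. Of 27 tested, 20 were higher (median 0.14), and 16 were higher without mutant 7 (0.08). Dlk1, which encodes a Notch-related growth regulator, was at 22.8, 7.71 and 13.7 CPM in wild types and at 32.8, 31.9 and 25.9 CPM in mutants (log2 fold change 1.04, SE 0.31). Nnat, a small membrane protein gene of developing neurons, stood at 72.8, 67.7 and 115 CPM against 118, 135 and 176 CPM (0.75, SE 0.21), and Zim1 at 16.0, 11.2 and 14.2 CPM against 21.97, 16.5 and 20.2 CPM (0.50, SE 0.16). All 3 were higher in every mutant, by a narrow margin in Nnat and Zim1. The noncoding Kcnq1ot1, which silences its neighbours on the paternal copy, was lower, at 145, 84.8 and 101 CPM against 76.1, 73.6 and 68.4 CPM (-0.60, SE 0.17, and -0.35 without wild type 8). Meg3 (-0.14), Peg3 (0.03) and Igf2 (-0.33) overlapped. None passed edgeR's test (adjusted p = 0.7207 for the 4 given with values), and Nnat lies within Blcap on the other strand.

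Clock, stress and steroid lists showed small shifts. Of 17 circadian genes 10 were lower, with a median of -0.07 that was -0.03 without mutant 10, -0.05 without wild type 12 and -0.13 without mutant 7. The output genes Dbp (-0.25) and Per3 (-0.23) were lower in every mutant, as was Nr1d1 (-0.24, and -0.06 without wild type 8), a receptor that represses through the corepressor complex. Stress and chaperone genes were 15 higher of 22 (median 0.02, with -0.07 without wild type 8 and 0.11 without wild type 12), with Bag3 (0.43) and Atf4 (0.24, and 0.15 without wild type 8) higher in every mutant. Glucocorticoid-responsive genes were 9 higher and 9 lower. In that list Lcn2, an acute-phase gene, was at 0.0945, 1.66 and 3.35 CPM in wild types and at most 0.441 CPM in mutants, with wild type 8 at the mutants' level. Across list members, those with the 3 smallest p were named by rule and the others are examples chosen after their values were seen.

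Properties of the genes were compared with the genotype effect. By exonic length, the median log2 fold change went from 0.04 in the 4284 shortest genes (56.2% higher) through 0.03 and 0.01 to -0.03 in the 4280 longest genes (41.3% higher). The order was the same with each other scaling, with the longest genes at 0.01 when scaled by library totals. Long noncoding genes had a median of -0.11 (36.2% of 1891 higher) and protein-coding genes 0.02 (53.9% of 14366). Genes within 10 Mb of Tbl1xr1 on chromosome 3 numbered 56, of which 19 were higher (33.9%, median -0.07) against 51.5% of the others. Chromosome 3 as a whole had 41.6% of 921 genes higher (median -0.03), and shares ran from 39.8% on chromosome 13 to 60.6% on chromosome 17 among the autosomes and X. At an unadjusted p under 0.05 were 5.36% of these 56 and 6.83% of the others. Genes are not independent replicates, and these shares carry no test.

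The females of the study were separate mice and share no library with the males, so they gave the same measure in animals that the naming did not use. Female mutant 3 had few counts and a high mitochondrial share, and values are given without it. With all 6 female libraries edgeR called 0 of 17237 genes (0%), with 670 at an unadjusted p under 0.05 (3.89%). In the 5 other female libraries it called 2 of 17677 genes (0.0113%), both mitochondrial-like pseudogenes, Gm10222 and Gm29216. Mpeg1 was at 22.1, 22.5 and 27.8 CPM in female wild types and at 12.6 and 12.3 CPM in female mutants 1 and 6 (log2 fold change -0.95, SE 0.12, edgeR adjusted p = 0.125), with no overlap, as in males. With female mutant 3, at 7.12 CPM, its log2 fold change was -1.12. Of the 12 lower genes, 11 were below 0 in these females as well, among them C1ra (-0.88), Fcgr2b (-0.80), Cyp4f15 (-0.44) and Cd34 (-0.38), whereas Lpl (-0.01) and F5 (-0.06) were near 0. Of the 12 higher genes 7 were above 0, led by C4b (0.48) and Lgi4 (0.16). Over all tested genes the sign was shared by 45.6%. With female mutant 3 included, the same sign was found for 7 lower and 4 higher genes of 12 each, and for 36.9% of all genes. DESeq2 called 118 genes in the 5 female libraries, of which 2, Mpeg1 and 2900052N01Rik, were among the 16 male calls (12.5% of the male and 1.69% of the female list). Over all 17127 genes tested in males, 0.0934% were called. The share of tested genes that DESeq2 called in the 5 female libraries is not given here, so the overlap of 12.5% has no background. The male calls C1ra and Hbb-bt had no DESeq2 adjusted p in these females, so they could not be called there.

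Globin genes ran in opposite directions in the sexes. Hbb-bs was at 26.0, 23.2 and 20.8 CPM in female wild types and at 18.3, 8.99 and 11.4 CPM in female mutants 1, 3 and 6, every mutant lower, whereas every male mutant was higher. The difference between the sexes, as a test over 12 libraries, was 1.78 on the log2 scale (SE 0.33, edgeR adjusted p = 0.555, DESeq2 0.00219). For Mpeg1 the difference was -0.04 (SE 0.18) without female mutant 3. EdgeR called 0 of 18016 genes (0%) for a difference between the sexes, with 1381 at an unadjusted p under 0.05 (7.67%), and DESeq2 called 4.

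**Figure D5:**
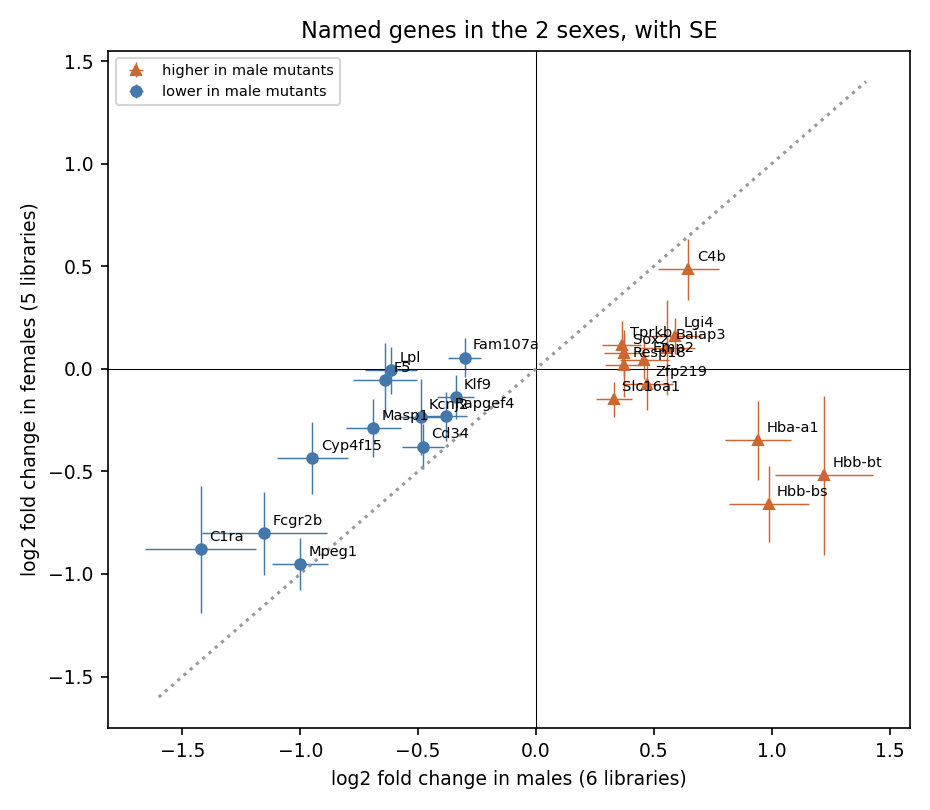
Log2 fold change of the 24 named genes in the 6 male libraries (horizontal) and in 5 female libraries (vertical), with SE bars and a dotted line of equal values. Mpeg1 lies close to the line at -0.9995 and -0.95. C1ra lies at -1.42 and -0.88, Fcgr2b at -1.15 and -0.80 and Lpl at -0.61 and -0.01. The globin genes are above 0 in males and below 0 in females.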

How the data were processed

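The authors deposited raw read counts per gene as whole numbers, with 0 columns unused and 0 rows that name no gene. Per the submitters' processing notes, Trimmomatic 0.36, HISAT2 2.1.0, HTSeq 0.11 and Cufflinks were used with build GRCm38.p6. Per the labels, the Kapa mRNA HyperPrep kit was used and paired reads of 150 bases came from a NovaSeq. Whether counting used strand, and which annotation, is not given in the sources used here. Of 54232 gene identifiers 54165 matched GENCODE M21.

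From the 6 male libraries alone (21238427 to 31944952 counts), genes were kept by edgeR's filterByExpr, scaled by TMM and fitted in edgeR 4.0.16 (R 4.3.3) for its quasi-likelihood test, with Benjamini-Hochberg adjustment over all tested genes and calls at 0.05. EdgeR results in males are from this fit unless an alternative is named. The SE of a log2 fold change is its size divided by the square root of F. CPM used TMM-scaled totals and log2 CPM a prior count of 2. The floor for a count of 0 is 3 counts per library. Gene lists, 33 in all, were described by counts and medians, without a test. Alternatives were DESeq2 1.42.0, limma-voom (limma 3.58.1) with and without library weights, other scalings and filters, a spread shared with the females, and leaving out each library. The fits in females and of the difference between the sexes used the same settings. After the data were seen, DESeq2 was added to both without female mutant 3. The procedure was tested on simulated data.

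The rule names the complex, on each side the 12 genes of smallest p with a mean of at least 1 CPM, no provisional symbol and no pseudogene, and each list's 3 members of smallest p, not all of them printed. Some members of the lists and of the complex are not reported here. The animals, lists and rules were chosen with earlier results of these data known. The labels name separate mice and give no batch, so p values measure the spread between animals and their libraries.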

Additional observations from a re-analysis of the deposited data

Results flagged for a closer look

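The genotype effect on 4 genes differed between males and females by DESeq2's test of the difference, and by edgeR's test on none of them. For Hbb-bs the male effect exceeded the female effect by 1.78 on the log2 scale (DESeq2 adjusted p = 0.00219, edgeR 0.555). Without female mutant 3 the difference was 1.65 (DESeq2 adjusted p = 0.000105, edgeR 0.459). For Hba-a1 it was 1.32 (DESeq2 adjusted p = 0.0202, edgeR 0.555), and 1.29 without female mutant 3 (0.0119 and 0.459). Hba-a1 stood at 10.4, 7.83 and 7.57 CPM in female wild types and at 7.81, 5.99 and 5.75 CPM in female mutants 1, 3 and 6. In males every mutant was higher in both globin genes, while in females every mutant was lower in Hbb-bs and 2 of 3 mutants lay below all wild types in Hba-a1.

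The 2 other genes are unprocessed pseudogenes on chromosome 1, named after their values were seen. The male effect on Gm29216 differed from the female effect by -2.82 (DESeq2 adjusted p = 9.02e-05), and that on Gm10222 by -2.98 (0.00163). In males Gm29216 stood at 29.9, 41.7 and 77.4 CPM in wild types and at 29.1, 28.7 and 19.6 CPM in mutants.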

How the results depend on the processing

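Of 100 genes given with a difference between the male genotypes, 1495 pairs of gene and alternative were computed over 15 alternatives. Direction and side of the threshold were kept in 1417, 39 became called and 39 changed sign. Without 1 library, 23 of the 79 genes past 0.2 on the log2 scale became smaller by over 1.5 times, 8 each without mutant 10 and without wild type 8. Leaving out 1 library gave -0.364 to 0.0477 for Gps2, -0.00275 to 0.14 for Hdac3, -0.21 to 0.58 for Pvalb, -0.0866 to 0.178 for Sst, -0.0411 to 0.173 for Peg3, -0.272 to 0.0329 for Meg3, -0.0141 to 0.12 for Srebf1, -0.0118 to 0.13 for Scd2 and -0.0934 to 0.0167 for Abcg1. It gave -0.000426 to 0.103 for Csf1r, -0.142 to 0.341 for Mrc1, -0.0429 to 0.0575 for C1qa, -0.0233 to 0.0698 for C1qb, -0.0352 to 0.0682 for Cx3cr1, -0.0746 to 0.0916 for Bpgm, -0.101 to 0.0862 for Ttr and -0.00121 to 0.189 for Hmgcs1. With library weights Hdac3 turned to -0.0141, C1qb to -0.0288, Cx3cr1 to -0.04 and Bpgm to 0.0808. C1qa was -0.00214 with DESeq2, -0.00219 with limma-voom, -0.00186 with RLE scaling and -0.00123 with the filter at 1 CPM. Scaled by library totals Bpgm was 0.0312 and Ttr 0.0299, without a filter 0.0037 and 0.0106, and Ttr was 0.000396 with the spread of 11 libraries. Of 495 pairs of list and alternative, 476 stayed within 1 SD of the libraries. That SD comes from the list's level in the same libraries, so leaving 1 out can rarely exceed it. It is widest where libraries differ most, as in thalamic markers (SD 0.75), counted as kept at medians from -0.31 to 0.25. Tbl1xr1 stayed between -0.26 and -0.20 and was never called.

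Genes called in males were 16 with DESeq2 (7 higher, 9 lower), 39 without a filter on low counts (17 higher, 22 lower) and 1 with the spread of 11 libraries (0 higher, 1 lower). Of the 39, the filter kept 38 and DESeq2 called 14. Baiap3, Gfap, Dlk1, Nnat and Kcnq1ot1 were among the 39. Every fit without 1 male library called 0. Genes at an unadjusted p under 0.05 numbered 1951 without a filter, 501 with the spread of all 12 libraries, and 724 (without mutant 10) to 1425 (without wild type 13) with 1 library left out. In females, 2 genes were called without female mutant 3, 3 with DESeq2 and 118 with both changes. For the difference between the sexes DESeq2 called 4, and 4 without female mutant 3. The cause of these differences in number was not tested. Shares of the genes tested are not given for the fit without a filter, nor for DESeq2 in females or in the difference between the sexes.

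No paired analysis was made, because the sample labels used here pair no mutant with a wild type. With 3 mice a genotype and a median SE of 0.14, small changes were not detectable.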

Other observations

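Trdn, a calcium store gene known from muscle, lay outside the naming rule because its mean was under 1 CPM, and it was picked after its values were seen. It stood at 1.13, 0.740 and 0.744 CPM in wild types 8, 12 and 13 and at 0.190, 0.150 and 0.120 CPM in mutants 7, 10 and 27, a log2 fold change of -2.48 (SE 0.41, edgeR adjusted p = 0.5115). Every mutant was below every wild type. In females it stood at 0.650, 0.306 and 0.309 CPM in wild types and at 3.23, 4.12 and 0.178 CPM in mutants 1, 3 and 6, so that 2 mutants lay above all wild types and 1 below them. The female log2 fold change was 1.95 without female mutant 3 (SE 0.89, edgeR adjusted p = 0.4338). The male effect differed from it by -4.43 (SE 1.19, unadjusted p = 0.00278, edgeR adjusted p = 0.4593).

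Tdo2, a tryptophan-degrading enzyme gene listed among hippocampal markers, was at 1.23, 0.958 and 1.49 CPM in wild types and at 0.190, 0.691 and 0.281 CPM in mutants (-1.56, SE 0.44, edgeR adjusted p = 0.7207), again without overlap. In the 5 female libraries without female mutant 3 its log2 fold change was -1.27.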
